A study of Mus musculus with 3 samples.

Results

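This account follows 10 genes of the Wnt pathway through bone-lining cells (BLCs) of mouse long bone and pelvis. The genes were taken by symbol from the 32285 genes counted, and all 10 were present in each of the 3 libraries: the ligands Wnt4, Wnt5a, Wnt5b, Wnt11 and Wnt16, the ligand enhancer Rspo3 and its receptor Lgr5, the transcription factors Lef1 and Tcf7, and the feedback gene Axin2. All 3 libraries form 1 group, replicates 1, 2 and 3, from wild-type C57BL/6 mice that were young adults and received no treatment, so cell populations were compared with one another within the same 3 libraries. Marrow was flushed from femora, tibias and iliac bones, the fragments were digested with collagenase, and cells that were Alcam+, Sca-1-, CD45-, Ter119- and CD31- were sorted for droplet RNA sequencing from the 3′ end. The labels name the tissue bone marrow and give no animal, date or batch, so the spread between libraries may be partly technical, and the libraries are 3 preparations rather than 3 known animals.

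Wnt ligands are secreted lipid-modified proteins that bind Frizzled receptors. In the canonical branch the signal stabilises β-catenin, which then acts on target genes together with the DNA-binding proteins of the TCF/LEF family, to which Lef1 and Tcf7 belong. Axin2 is a target that feeds back on the branch by promoting β-catenin breakdown. R-spondins such as Rspo3 bind Lgr receptors and keep Frizzled receptors at the cell surface. Wnt5a, Wnt5b and Wnt11 are mostly known for the branches that do not act through β-catenin, and in bone the pathway is known for its part in osteoblast formation and in the ordering of growth plate cartilage.

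After filtering, 18232 cells were analysed (2476, 6363 and 9393 in replicates 1, 2 and 3), with median depths of 5614, 9704 and 5814 unique molecular identifiers (UMIs, 1 per captured transcript). Pairs of libraries shared 5 to 28 cell barcodes. Transcripts of the sort markers were sparse, with Alcam seen in 7.31% to 12.1% of cells and Ly6a, which encodes Sca-1, in 3.22% to 9.98%. Pecam1, which encodes CD31, was seen in 10.0% to 16.0% of cells, more than Alcam in every library. Ptprc, which encodes CD45, was seen in 1.76% to 5.65%. Cells were assigned to gates by the mean scaled level of marker genes, none of which is one of the 10 genes. A chondrocyte gate (Col2a1, Acan and others) took 13397 cells and an osteoblast gate (Bglap, Col1a1) 873. A gate of Cxcl12-abundant reticular (CAR) cells (Cxcl12, Lepr, Adipoq) took 785. A tendon gate (Tnmd, Scx) took 211 and a fibroblast gate (Cd34, Igfbp6) 156. A gate is a range of a marker score and not a proven cell type, and 33.3% of fibroblast-gate cells lay within 0.05 of the score threshold, against 4.40% in the chondrocyte gate. Replicate 1 stood apart, with 15.7% of its cells in the chondrocyte gate against 82.9% and 82.3% in replicates 2 and 3, and 24.3% in the CAR gate against 1.27% and 1.10%. Levels are therefore given for each library, as CPM (UMIs of the gene for each 1e6 UMIs of the gate), in the order of replicates 1, 2 and 3, and results are given with and without replicate 1 where it mattered.

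The 10 genes were counted at very different depths, from 353 UMIs in all for Wnt16 and 467 for Wnt5a to 7272 for Wnt4 and 13809 for Lef1. Which gate supplied these transcripts followed the makeup of the libraries. In replicates 2 and 3 the chondrocyte gate held 98.8% and 96.9% of Lef1 UMIs, 95.0% and 92.0% of Rspo3 UMIs and 95.9% and 96.5% of Wnt4 UMIs. In replicate 1 the CAR gate held 79.1% of Rspo3 UMIs, 79.3% of Lgr5 UMIs and 59.7% of Wnt4 UMIs, and the chondrocyte gate held 51.2% of Lef1 UMIs. Cells outside every gate held 43.0%, 44.4% and 31.3% of Wnt16 UMIs and 53.1%, 11.2% and 23.7% of Wnt5a UMIs in replicates 1, 2 and 3.

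**Figure D1:**
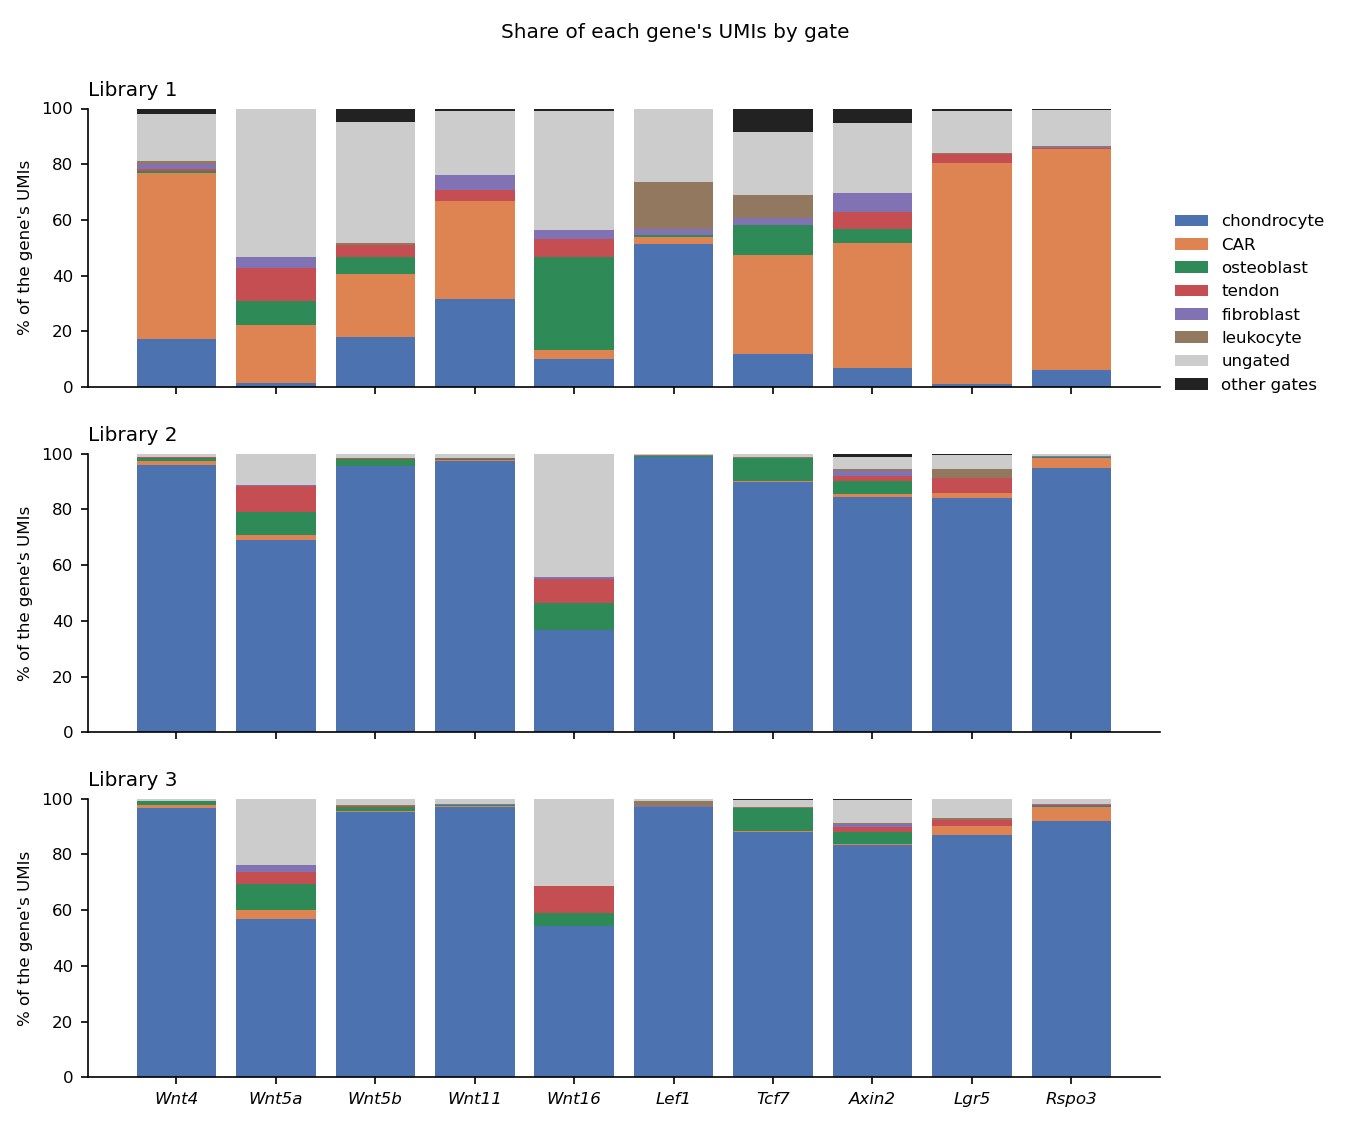
Share of each gene's UMIs (y axis, percent) held by each gate, with 1 panel per library and 1 bar per gene. In libraries 2 and 3 the chondrocyte gate holds at least 83.3% of every bar except those of Wnt16 and Wnt5a, whereas in library 1 the CAR gate holds 79.1% of the Rspo3 bar, 79.3% of the Lgr5 bar and 59.7% of the Wnt4 bar.

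The gates were compared by the edgeR quasi-likelihood test on UMI sums of each gate in each library, with the library as a block and p-values adjusted over the 8288 genes that passed the low-count filter. Each gate was set against the mean of the log levels of the other 4 mesenchymal gates, so a log2 fold change refers to a geometric mean, and a gene can be called higher in a gate that is not its highest. 9 of the 10 genes passed this filter and Lgr5 did not, so Lgr5 was tested only in some of the alternative fits. In the chondrocyte gate 5 of 9 were higher (25.4% of all genes tested were) and 2 lower (21.7%). In the osteoblast gate 4 were higher (18.5%) and 2 lower (15.4%), and in the CAR gate 2 were higher (19.3%) and 2 lower (16.2%). In the tendon gate 2 were higher (9.34%) and 3 lower (5.57%), and in the fibroblast gate 0 were called higher (7.23%) and 0 lower (3.67%) by edgeR. DESeq2 also called 0 there, while 3 of the 9 (Axin2 with a higher level, Wnt4 and Wnt5b with a lower one) had an unadjusted p under 0.05.

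Lef1 marked the chondrocyte gate. Its level there was 81.9, 115 and 109 CPM (102 ± 17.6, SD, n = 3, as in the other levels below unless stated), and the highest value of any other mesenchymal gate was the 33.0 CPM of the fibroblast gate in replicate 1. The order below it was fibroblast (33.0, 8.20 and 10.7 CPM), osteoblast (11.2, 6.90 and 15.3), CAR (3.37, 7.68 and 2.69) and tendon (1.91, 4.27 and 0), and neighbours in this lower part overlapped. Against the other gates Lef1 was higher in the chondrocyte gate by 4.21 ± 0.27 (log2, SE; adjusted p = 1.76e-08) and remained called without each library in turn. It was lower in the CAR gate (-2.06 ± 0.54, adjusted p = 0.0073), a call lost without replicate 1 (-1.46, adjusted p = 0.12). It was also called lower in the tendon gate on 3 UMIs (pooled ratio to the mean of the other gates 0.0658, 95% counting interval 0.0136 to 0.192), a call lost without replicate 3 (-2.60, adjusted p = 0.060) and with the looser marker threshold (-1.07, adjusted p = 0.29). Lef1 was seen in 14.7%, 39.6% and 29.1% of chondrocyte-gate cells, and in 6.74%, 9.59% and 9.0% once each cell was thinned to 1000 UMIs. No Lef1 UMI was found in the 231 cells of the erythroid gate, used as the measure of free RNA, which allows a share of up to 1.30% of such cells with a Lef1 UMI, for counting error only, and sets no limit on cells that express the gene.

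Tcf7, the other TCF/LEF factor followed, had its highest level in another gate. It was at 33.5, 48.3 and 48.7 CPM in the osteoblast gate (43.5 ± 8.67), above every library of the chondrocyte (3.53, 12.2 and 10.3), CAR (8.41, 3.84 and 8.06), fibroblast (7.34, 0 and 0) and tendon (0, 2.14 and 0) gates. The osteoblast gate was higher by 3.96 ± 0.43 (adjusted p = 5.20e-06), also without each library in turn, but its size moved to 6.02 without replicate 1, 4.96 without replicate 2 and 5.78 when sums of at least 50 cells were required. The only fibroblast sum of at least 50 cells, that of replicate 3, held 0 Tcf7 UMIs. The chondrocyte gate was not called (0.96 ± 0.50, adjusted p = 0.13). The tendon gate was called lower on a single UMI (pooled ratio 0.0459, counting interval 0.00116 to 0.256), and this call was lost without any 1 of the libraries (adjusted p = 1, 0.12 and 0.17 without replicates 1, 2 and 3). Lef1 was not called in the osteoblast gate (0.26 ± 0.44, adjusted p = 0.69). The highest levels of these related factors thus lay in separate gates, that of Lef1 in the cells with cartilage markers and that of Tcf7 in the cells with bone markers.

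The core of the TCF/LEF binding site, CTTTGA or its reverse strand TCAAAG, was looked up in the 250 bases before each annotated start of the members (RefSeq promoters, GRCm38.p6). 7 of the 10 genes had 14 windows in the table, whereas Wnt5a, Lgr5 and Rspo3 had none. The letters occurred in 3 of the 14 windows and in 13.8% of the 32851 windows of all genes. The 3 windows are shown because they hold these letters, and they belong to Lef1, Wnt11 and Wnt5b. These genes were called higher in the chondrocyte gate, but so were Wnt4, whose window has no match, and Rspo3, which has no window. The other windows of Lef1, Wnt11 and Wnt5b have no match, and a link of the letters to the levels was not tested. Capitals mark the match, and each window runs 5′ to 3′ on the strand of the gene. The Lef1 window, at chr3:131156044-131156293 (+ strand), precedes a downstream start and has matches that begin 180 and 120 bases before it. The Wnt11 window is at chr7:98834862-98835111 (+ strand) and its match begins 50 bases before the start. The Wnt5b window, at chr6:119449387-119449636 (- strand), precedes a downstream start and its match begins 71 bases before it. Reads from the 3′ end do not tell which start was used, and a match is not a bound site.
Lef1: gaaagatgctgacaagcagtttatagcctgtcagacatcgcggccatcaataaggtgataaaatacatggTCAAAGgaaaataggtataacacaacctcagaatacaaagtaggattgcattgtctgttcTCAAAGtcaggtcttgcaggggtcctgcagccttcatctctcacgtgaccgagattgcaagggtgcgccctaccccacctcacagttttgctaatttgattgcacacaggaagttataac
Wnt11: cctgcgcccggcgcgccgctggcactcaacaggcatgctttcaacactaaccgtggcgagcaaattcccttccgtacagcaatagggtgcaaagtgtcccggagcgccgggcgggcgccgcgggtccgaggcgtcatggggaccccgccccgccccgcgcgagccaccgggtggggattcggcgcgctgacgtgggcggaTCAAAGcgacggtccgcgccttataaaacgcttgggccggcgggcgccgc
Wnt5b: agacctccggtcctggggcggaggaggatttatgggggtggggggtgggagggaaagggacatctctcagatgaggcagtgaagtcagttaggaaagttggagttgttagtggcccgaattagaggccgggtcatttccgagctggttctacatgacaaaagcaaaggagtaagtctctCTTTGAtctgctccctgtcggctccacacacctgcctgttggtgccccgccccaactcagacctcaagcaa

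Among the ligands, Wnt4 was highest in the CAR gate and next in the chondrocyte gate. Its CAR level was 48.5, 119 and 99.5 CPM (89.0 ± 36.4), against 17.7, 64.0 and 49.7 CPM (43.8 ± 23.8) in the chondrocyte gate and 7.45, 37.3 and 31.5 CPM in the osteoblast gate. In each library these gates kept the order CAR, chondrocyte and osteoblast, although the ranges of the CAR and chondrocyte values overlapped across libraries and the fibroblast gate of replicate 1 (18.3 CPM, against 8.20 and 0 in the others) was level with its chondrocyte gate. Wnt4 was higher in the CAR gate by 2.28 ± 0.32 (adjusted p = 5.06e-05), also without each library, and higher in the chondrocyte gate by 1.40 ± 0.31 (adjusted p = 0.0017), which was not called without replicate 2 (1.15, adjusted p = 0.097). With sums of at least 50 cells these values were 4.66 and 3.82. In that fit the fibroblast gate was left with replicate 3 alone. That sum held 0 Wnt4 UMIs and entered the mean of the log levels. Wnt4 was lower in the tendon gate (3.82, 4.27 and 10.8 CPM; -2.63 ± 0.59, adjusted p = 0.0069). This call was lost without replicate 2 (-2.13, adjusted p = 0.21) and when sums of at least 50 cells were required (-0.28).

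Wnt11 was highest in the chondrocyte gate, at 14.5, 29.0 and 31.0 CPM (24.8 ± 9.01). The fibroblast gate followed at 25.7, 12.3 and 14.3 CPM and overlapped with it, and in replicate 1 it was above it. Wnt11 was higher in the chondrocyte gate by 1.46 ± 0.27 (adjusted p = 0.00051), also without each library. The osteoblast gate had the lowest level (0, 4.83 and 6.69 CPM; -1.36 ± 0.46, adjusted p = 0.035), but that call was lost without any 1 of the libraries (adjusted p = 0.060, 0.27 and 0.091), in the fit without the library block (adjusted p = 0.054), with sums of at least 50 cells and without removal of doublets.

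Wnt5a and Wnt5b, a close pair of ligands, were distributed differently. Wnt5a was lowest in the chondrocyte gate, at 0.706, 2.23 and 1.26 CPM, and every library of every other mesenchymal gate was above these values. It was highest in the tendon gate (32.5, 40.6 and 17.9 CPM, 30.3 ± 11.5), followed by the osteoblast gate (44.7, 11.7 and 10.5 CPM), and these overlapped. The test called Wnt5a lower in the chondrocyte gate (-2.88 ± 0.41, adjusted p = 4.39e-05), higher in the tendon gate (1.85 ± 0.41, adjusted p = 0.0062) and higher in the osteoblast gate (1.36 ± 0.42, adjusted p = 0.020). Without replicate 1 Wnt5a did not pass the count filter. The tendon call was lost without replicate 2 (1.47, adjusted p = 0.21). The osteoblast call was lost without replicate 2 (1.72, adjusted p = 0.070) or replicate 3 (1.54, adjusted p = 0.11). It was also lost with the stricter marker threshold (0.97, adjusted p = 0.13) and with sums of at least 50 cells. With the stricter threshold the fibroblast gate had no sum large enough, so the other gates were compared without it. Wnt5b was at 67.0, 36.6 and 18.1 CPM in the osteoblast gate (40.6 ± 24.7) and at 19.1, 33.0 and 26.1 CPM in the chondrocyte gate (26.1 ± 6.98), which overlapped. Both were called higher than the other gates (1.62 ± 0.39, adjusted p = 0.0050, and 1.04 ± 0.34, adjusted p = 0.020), and neither was called without replicate 2 (1.44, adjusted p = 0.12, and 0.75, adjusted p = 0.27). The chondrocyte call was also lost with sums of at least 50 cells (0.77, adjusted p = 0.072), and the osteoblast value was 2.40 without replicate 3. The tendon gate followed at 24.8, 14.9 and 14.3 CPM, the CAR gate at 18.8, 5.76 and 16.1 CPM and the fibroblast gate at 0, 4.10 and 14.3 CPM.

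Wnt16, a ligand known from cortical bone, was carried by few cells. The tendon gate had 15.3, 25.6 and 28.7 CPM (23.2 ± 7.03). The osteoblast gate had 160, 9.66 and 3.82 CPM (57.9 ± 88.6), where the value of replicate 1 rests on 43 UMIs in 9 cells, 11 of them in 1 cell. The SD of the osteoblast gate exceeds its mean, and without replicate 1 the mean was 6.74 CPM. The test called Wnt16 higher in the osteoblast gate (3.54 ± 0.62, adjusted p = 5.22e-04; 5.29 with sums of at least 50 cells), also without each library, and higher in the tendon gate (2.79 ± 0.79, adjusted p = 0.027), a call lost without replicate 2 (2.23, adjusted p = 0.34) or replicate 3 (2.17, adjusted p = 0.18). It was lower in the CAR gate, where 4 UMIs were found in replicate 1 and 0 in the others (-4.67 ± 1.17, adjusted p = 0.0055), and this was lost without replicate 1 (adjusted p = 0.11). Without the library block the tendon and CAR calls of Wnt16 were lost (adjusted p = 0.15 and 0.064), as they were with sums of at least 50 cells. In the latter fit the fibroblast gate was left with replicate 3 alone, which held 0 Wnt16 UMIs.

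Rspo3, which strengthens the response of a cell to Wnt ligands, was highest in the CAR gate by a wide margin. Its CAR level was 110, 154 and 150 CPM (138 ± 24.2), and the highest value of any other mesenchymal gate was the 33.0 CPM of the chondrocyte gate in replicate 2. The CAR gate was higher by 4.04 ± 0.25 (adjusted p = 9.53e-09), also without each library. The osteoblast gate held 0, 1 and 3 Rspo3 UMIs (-3.79 ± 0.53, adjusted p = 6.86e-05), called lower also without each library, at -3.69, -3.02 and -5.18. The chondrocyte gate, at 10.9, 33.0 and 19.4 CPM, was above the geometric mean of the other gates (1.01 ± 0.27, adjusted p = 0.0066) but below their arithmetic mean of 40.3 CPM, which the CAR gate raises, and the call was lost without replicate 2 (0.58, adjusted p = 0.26). Rspo3 was seen in 35.1%, 55.6% and 37.9% of CAR-gate cells and in 0 of 231 erythroid-gate cells.

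Lgr5, the receptor of R-spondins that marks stem cells of several epithelia, was found in the CAR gate at 67.6, 5.76 and 13.4 CPM (28.9 ± 33.7) and in the tendon gate at 17.2, 21.4 and 10.8 CPM (16.4 ± 5.35), which overlapped. The CAR mean without replicate 1 was 9.60 CPM. The tendon values rest on 9, 10 and 3 UMIs in 3, 3 and 2 cells, with up to 6, 8 and 2 of them in 1 cell. The chondrocyte gate was at 1.41, 2.42 and 2.36 CPM, and no Lgr5 UMI was counted in the osteoblast or fibroblast gate in any library. In replicate 1, 241 Lgr5 UMIs lay in 81 of 601 CAR-gate cells, up to 20 in 1 cell. The mesenchymal gate with the highest Lgr5 level was thus also the one with the highest Rspo3 level in replicates 1 and 3. In replicate 3 the CAR and tendon levels of Lgr5 rest on 5 and 3 UMIs. In replicate 2 Lgr5 was highest in the tendon gate. Lgr5 was seen in only 2 CAR-gate cells each in replicates 2 and 3.

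Axin2, the feedback gene, did not follow Lef1. It was lowest in the chondrocyte gate, at 2.83, 3.79 and 2.92 CPM (3.18 ± 0.530), and highest in the fibroblast gate, at 29.3, 20.5 and 7.16 CPM (19.0 ± 11.2). The means of the osteoblast gate (22.3, 8.97 and 7.64 CPM), the tendon gate (13.4, 10.7 and 10.8 CPM) and the CAR gate (14.6, 7.68 and 2.69 CPM) lay between them, all overlapped with the fibroblast gate, and the CAR gate also overlapped with the chondrocyte gate. The chondrocyte gate was lower by the test (-1.50 ± 0.31, adjusted p = 0.0012), a call lost without replicate 2 (-1.58, adjusted p = 0.063). Without replicate 1 the gene did not pass the count filter. The fibroblast gate was not called (1.02 ± 0.44, adjusted p = 0.16).

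**Figure D2:**
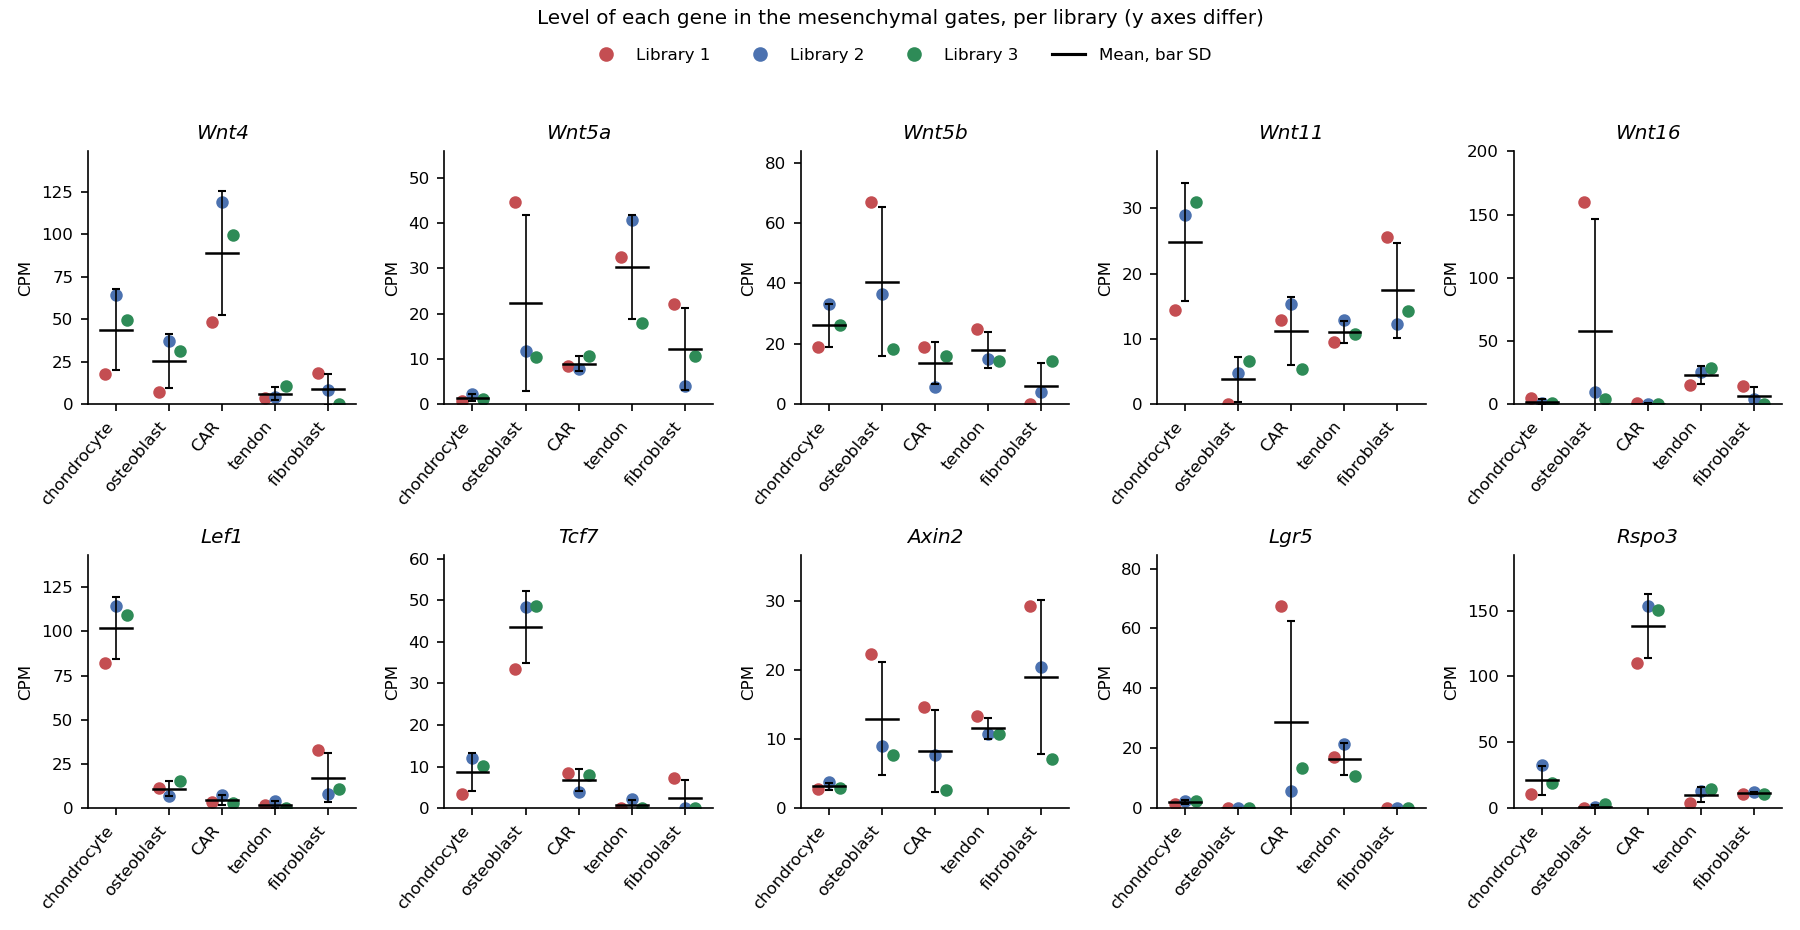
Level of each of the 10 genes (y axis, CPM, a separate scale per gene) in the 5 mesenchymal gates. Points are libraries, lines are means and bars are SD (n = 3). Lef1 stands out in the chondrocyte gate, Tcf7 in the osteoblast gate and Rspo3 in the CAR gate in every library, whereas the highest Wnt16 and Lgr5 points belong to library 1 alone.

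Cells of the blood gates gave the level of free RNA, since Wnt ligands and Rspo3 are not known as products of red cells. In the erythroid gate the means of the 10 genes were 0 to 2.15 CPM. The gate of leukocyte markers, led by neutrophil genes such as S100a9 and S100a8, had a mean of at most 1.90 CPM of the 9 genes other than Lef1, and Lef1 at 35.4, 14.5 and 47.3 CPM (32.4 ± 16.6). Lef1 is expressed by lymphocytes. In replicate 1, 45 of the 77 Lef1 UMIs lay in 1 of 122 cells of this gate, and the T cell markers Cd3e, Cd3d and Cd3g were seen in at most 2 of these cells in replicate 1 and in none in replicates 2 and 3. Trac, which encodes a T cell receptor chain, was seen in 2, 3 and 3 of the 122, 125 and 227 cells of this gate, and Il7r, a receptor of lymphocytes, in 8, 10 and 27. The part of T cells in this value was not tested. The mural gate, 62 of whose 65 cells came from replicate 1, held 3 Tcf7, 2 Axin2 and 1 Wnt5b UMIs and none of the other 7 genes.

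The chondrocyte gate was divided by further markers into cycling (Mki67, 230 cells), hypertrophic (Col10a1, 547), growth plate (Matn3, Prkg2, 3359), Cilp-high (Cilp, Prg4, 3016), Cytl1 Myoc (2446) and Notum Sfrp5 (1247) subsets, and 2552 cells fell in none. Replicate 1 had too few cells for a sum in the first 3, so these have 2 libraries, replicates 2 and 3. The markers of the last subset include the Wnt-inactivating enzyme Notum and the Wnt antagonist Sfrp5. They were chosen when it was known that Lef1 is high beside them. The Lef1 level of this subset is therefore a description rather than independent evidence. The same test over 13891 genes set each subset against the mean of the log levels of the others, and 9 of the 10 genes passed the filter, Wnt16 excepted.

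The growth plate subset had 7 genes higher (26.9% of all genes tested) and 2 lower (23.4%). Wnt4 stood at 111 and 114 CPM there (112 ± 2.00, n = 2), higher by 2.45 ± 0.14 (adjusted p = 5.62e-11), and Rspo3 at 58.2 and 40.6 CPM (2.44 ± 0.12, adjusted p = 4.66e-12). Both calls were kept without each library. Tcf7 was at 17.5 and 15.9 CPM (1.24 ± 0.13, adjusted p = 2.03e-07) and was not called without replicate 2 (1.18, adjusted p = 0.096). Lef1, Wnt5b, Wnt11 and Wnt5a were also higher, by 1.11, 0.93, 0.56 and 0.84, Lef1 with a mean of 130.5 CPM that lay below the arithmetic mean of the other subsets (135 CPM). Wnt5a was at only 3.225 and 1.764 CPM and was not called with DESeq2 (adjusted p = 0.13). Axin2 (1.77 and 1.82 CPM, -1.22 ± 0.26) and Lgr5 (0.603 and 0.661 CPM, -1.79 ± 0.65) were lower, Lgr5 not without the library block (adjusted p = 0.063). Without replicate 2 or replicate 3, when a single library stood for the subset, 3 and 4 of its 9 calls were made.

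In the cycling subset 4 genes were higher (23.4%) and 1 lower (16.6%). Rspo3 was at 73.1 and 58.0 CPM, higher by 2.81 ± 0.16 (adjusted p = 1.51e-11), also without each library, and it was above every library of the Cilp-high, Cytl1 Myoc, hypertrophic and Notum Sfrp5 subsets. Wnt4 was at 72.4 and 44.7 CPM (1.22 ± 0.22, adjusted p = 1.41e-04), not called without replicate 2 (0.94, adjusted p = 0.081). Lef1 (102 and 109 CPM, 0.61 ± 0.17) was called higher although the arithmetic mean of the other subsets was 140 CPM, which the Notum Sfrp5 subset raises, and this call was lost with DESeq2, without removal of doublets, with the looser marker threshold and without the library block. Lgr5 was called lower on a single UMI (pooled ratio 0.0718, counting interval 0.00182 to 0.400). 1 and 2 of the 5 calls were made without replicates 2 and 3.

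The hypertrophic subset had 3 genes higher (8.7%) and 2 lower (6.32%). Wnt5b was at 49.1 and 28.6 CPM (0.98 ± 0.20, adjusted p = 0.0016). Wnt11 was at 15.4 and 9.67 CPM (-1.06 ± 0.21, adjusted p = 0.0017) and Tcf7 at 3.47 and 2.76 CPM (-1.43 ± 0.35, adjusted p = 0.0080). Wnt4 was not called (43.2 and 16.6 CPM, 0.34 ± 0.27, adjusted p = 0.44). Lef1 (97.8 and 87.5 CPM, 0.75 ± 0.18) was called higher although the arithmetic mean of the other subsets was 143 CPM. Lgr5 was also called higher, on 19 UMIs (3.47 and 5.53 CPM, 1.85 ± 0.52). In the blood gates Lgr5 reached 2.485 CPM in the leukocyte gate of replicate 2 and was 0 in the erythroid gate. Without replicate 2 all 5 genes missed the threshold (adjusted p from 0.061 to 0.79), and without replicate 3 only Wnt5b passed it (1.26, adjusted p = 0.027). Without the library block 3 of the genes were called in place of 5, Lef1 and Lgr5 being lost, and the Lef1 call was also lost with DESeq2, without removal of doublets and with the looser threshold.

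The Cilp-high subset, marked by genes of superficial cartilage, had the lowest levels of Lef1, Wnt5b and Rspo3. 1 gene was higher (22.1%) and 6 were lower (20.6%). Lef1 was at 1.89, 6.30 and 8.15 CPM (5.45 ± 3.21), with a log2 fold change of -4.01 ± 0.21 (adjusted p = 1.46e-11), and these values lay below every library of every other subset. Rspo3 was at 1.26, 1.97 and 1.89 CPM (-3.27 ± 0.24, adjusted p = 1.70e-09). Wnt4 was at 3.16, 7.48 and 6.85 CPM (-2.35 ± 0.24, adjusted p = 1.87e-07) and Wnt5b at 3.79, 8.79 and 9.68 CPM (-1.73 ± 0.18, adjusted p = 1.83e-07). These 4 calls were made without each library in turn, and the Lef1 value was -3.01 without removal of doublets. Lgr5 was the gene called higher, at 0.631, 6.56 and 3.90 CPM (1.91 ± 0.34, adjusted p = 1.53e-04), and was not called without replicate 2 (1.07, adjusted p = 0.57). In replicate 1 this subset made up 232 of the 389 cells of the chondrocyte gate, which moved with the lower Lef1, Wnt4 and Rspo3 levels of that gate in that library, and its part in them was not tested. Of those 389 cells 127 also lay near the score threshold.

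The Cytl1 Myoc subset, whose markers include the secreted Wnt antagonist Wif1, had 2 genes higher (16.7%) and 5 lower (15.4%). Wnt4 was at 4.76, 4.36 and 6.65 CPM (-2.53 ± 0.25, adjusted p = 1.61e-07), with Rspo3 (-2.29 ± 0.22) and Wnt5b (-1.63 ± 0.18) also lower, each without every library in turn. Lef1 was intermediate, at 88.0, 33.5 and 26.2 CPM, and was called lower (-1.06 ± 0.17, adjusted p = 6.52e-05), a call lost without replicate 2 (-0.87, adjusted p = 0.13) or replicate 3 (-0.53, adjusted p = 0.61). Axin2 had its highest level within cartilage here, at 4.76, 8.10 and 4.75 CPM (5.87 ± 1.93), higher by 1.26 ± 0.23 (adjusted p = 3.32e-04), a call lost without replicate 2 (1.00, adjusted p = 0.66) or replicate 3 (1.60, adjusted p = 0.083). Lgr5, also called higher (1.09 ± 0.38, adjusted p = 0.035), was not called with DESeq2, without removal of doublets, with the looser threshold or without the library block.

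The Notum Sfrp5 subset had 5 genes higher (22.3%) and none lower (19.4%) by edgeR. The 5 include Lef1, known to be high beside the markers when these were chosen, so the count is partly a description. DESeq2 also called none lower and none was lower at an unadjusted p under 0.05, while 1 gene was called lower without replicate 1, without the low-count filter, without removal of doublets and with the stricter marker threshold. Lef1 was at 617, 349 and 303 CPM (423 ± 170), above every library of every other subset, with a log2 fold change of 2.59 ± 0.13. It was seen in 76.7%, 75.0% and 65.6% of cells of this subset and in 40%, 27.3% and 25.1% after thinning. Wnt4 was at 124, 56.3 and 36.1 CPM (0.87 ± 0.19, adjusted p = 0.0011), called without each library. Wnt5b was at 90.6, 36.6 and 41.7 CPM (0.73 ± 0.15, adjusted p = 6.71e-04), not called without replicate 3 (0.67, adjusted p = 0.23) or with the stricter threshold (0.40, adjusted p = 0.053). Tcf7 was at 0, 19.9 and 15.6 CPM (1.23 ± 0.17) and Wnt11 at 11.3, 43.9 and 44.0 CPM (0.77 ± 0.12). Replicate 1 had the lowest value of both genes, on 0 and 2 UMIs. Neither gene was called without replicate 2 (adjusted p = 0.27 and 0.33) or replicate 3 (adjusted p = 0.086 and 0.41). Axin2 was not called here (0, 2.87 and 4.31 CPM, -0.14 ± 0.33, adjusted p = 0.78). In replicate 1 this subset held only 30 cells and 176670 UMIs. The zeros of Tcf7 and Axin2 there have an upper counting limit of 20.9 CPM, above the values of replicates 2 and 3. These zeros therefore do not show a lower level in replicate 1. The replicate 1 levels of Lef1, Wnt4 and Wnt5b rest on 109, 22 and 16 UMIs in 23, 6 and 3 cells.

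**Figure D3:**
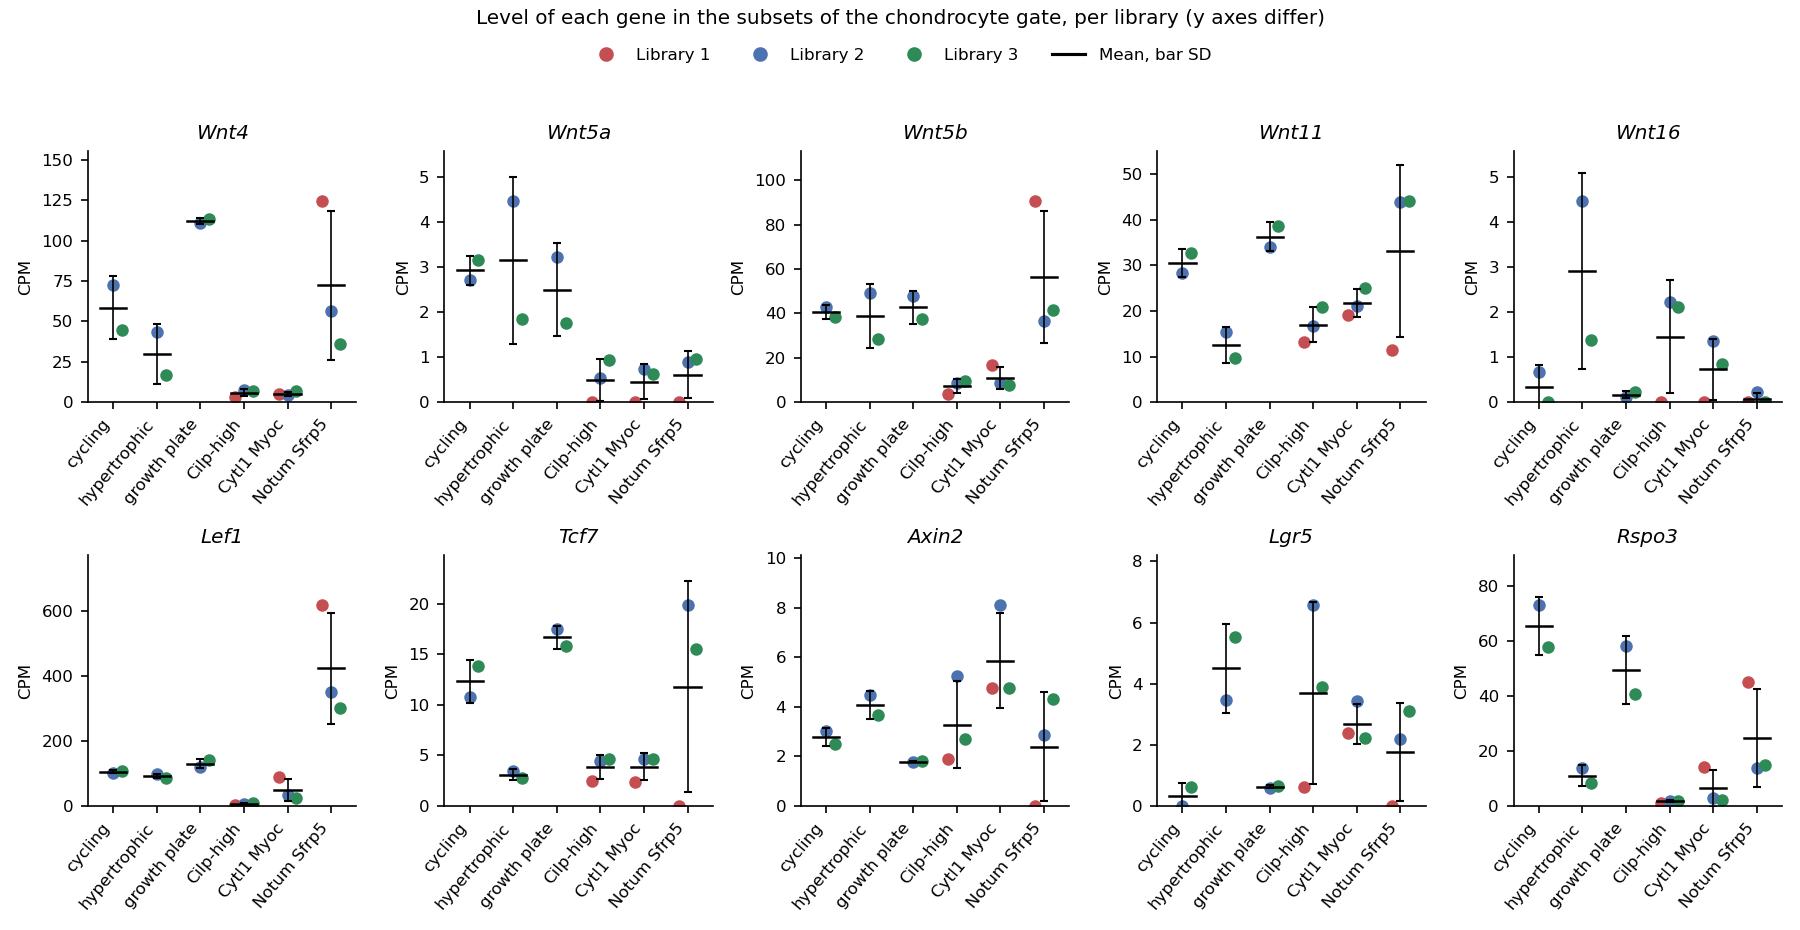
Level of each of the 10 genes (y axis, CPM, a separate scale per gene) in the 6 subsets of the chondrocyte gate. Points are libraries, lines are means and bars are SD (n = 3, or 2 for cycling, hypertrophic and growth plate). Lef1 is highest in the Notum Sfrp5 subset and Wnt4 is at 111 and 114 CPM in the growth plate subset, while both are low in the Cilp-high subset.

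**Figure D4:**
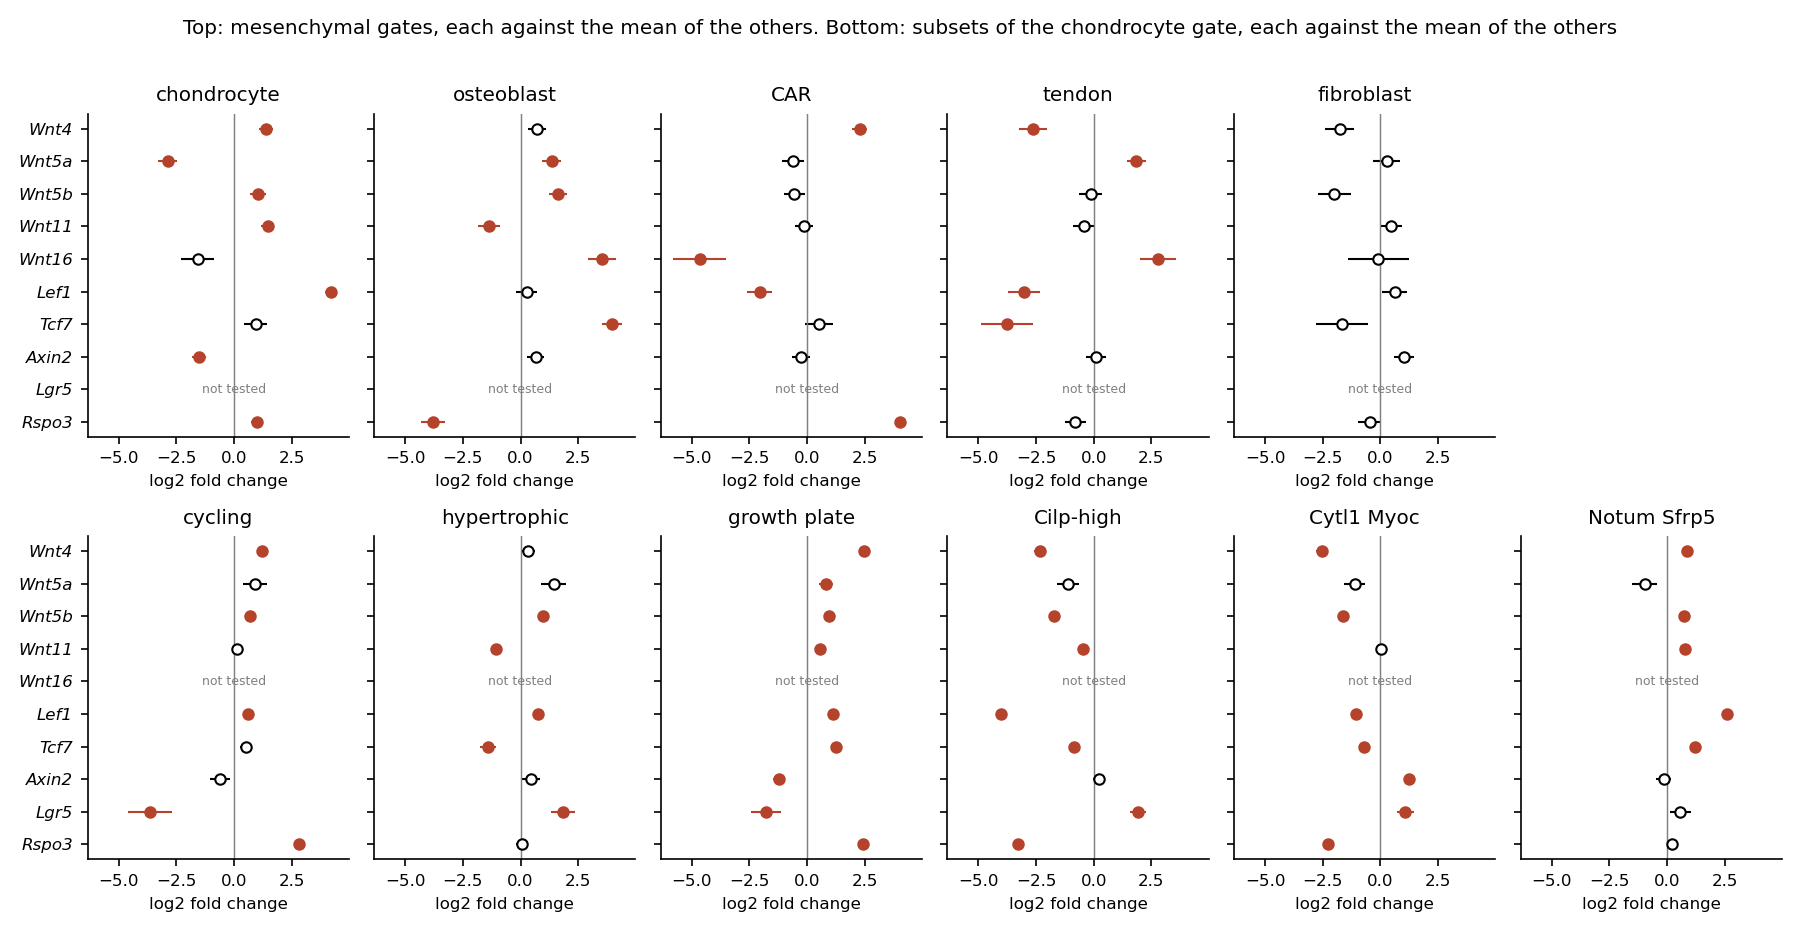
Log2 fold change of each gene (x axis, bars SE) in each mesenchymal gate (top) and each subset of the chondrocyte gate (bottom) against the mean of the others. Filled points passed an adjusted p of 0.05 and open points did not. The Cilp-high and Cytl1 Myoc panels have Wnt4, Wnt5b, Lef1 and Rspo3 to the left of 0, and the growth plate panel has them to the right.

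The rest of the pathway was followed through 5 lists of 57 genes. Their calls are given for the fit of all libraries only, and how they depend on the processing is not given. Of 14 other Wnt ligands only Wnt6 and Wnt9a passed the filter in the mesenchymal fit. Wnt6 was higher in the fibroblast gate (37.9 CPM; 4.08 ± 0.59, adjusted p = 3.24e-04) and Wnt9a in the osteoblast gate (93.2 CPM; 1.62 ± 0.22, adjusted p = 4.59e-05), and both were lower in the chondrocyte gate (-2.57 and -2.31). Wnt6 was also called lower in the osteoblast gate, on 1 UMI (-3.68 ± 1.19). Of the ligand release and R-spondin genes, 2 of 5 were tested and both were higher in the CAR gate (19.3% of all genes tested were). These lists were chosen with earlier results of these data known. Rspo2, the close relative of Rspo3, was at 61.3 CPM in the CAR gate (7.1 ± 0.42, adjusted p = 3.71e-08). It was also called higher in the fibroblast gate, on 8 UMIs (9.865 CPM, 3.815 ± 0.916, adjusted p = 0.017). Wls, which carries ligands to the cell surface, was at 196 CPM in the CAR gate (0.60 ± 0.21, adjusted p = 0.039), at 219 CPM in the tendon gate (0.83 ± 0.22, adjusted p = 0.016) and lower in the chondrocyte gate (-1.18 ± 0.22).

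Of 18 receptors and coreceptors 15 were tested. In the chondrocyte gate 3 were higher (25.4% of all genes tested were) and 6 lower (21.7%), with a median log2 fold change of -0.53 against 0.01 over all genes. In the osteoblast gate 4 were higher (18.5%) and 6 lower (15.4%), with a median of -0.20 against -0.04. Lgr6, a relative of Lgr5, was at 102 CPM in the chondrocyte gate (4.28 ± 0.32, adjusted p = 8.48e-08) and at 1.74 CPM in the CAR gate (-3.30 ± 0.72), the reverse of the order of Lgr5. Lrp5, the coreceptor known for its effect on bone mass, was at 113 CPM in the osteoblast gate (2.48 ± 0.18, adjusted p = 7.62e-08). Ror1 and Fzd2 were higher in the fibroblast gate (1.78 and 2.45) and lower in the osteoblast gate (-2.67 and -2.46). In the CAR gate 3 of the 15 receptors were higher (19.3% of all genes tested were) and 3 lower (16.2%), close to the shares over all genes. In the tendon gate 3 were higher (9.34%) and 2 lower (5.57%), and in the fibroblast gate 4 were higher (7.23%) and 0 lower (3.67%).

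Of 9 transducers tested, 0 were higher (25.4% of all genes tested were) and 3 lower (21.7%) in the chondrocyte gate. In the osteoblast gate 4 were higher (18.5%) and 0 lower (15.4%), and in the CAR gate 4 were higher (19.3%) and 0 lower (16.2%). Tcf7l1 and Tcf7l2, the remaining TCF/LEF genes, were higher in the CAR gate (172 and 320 CPM; 1.63 ± 0.26 and 1.23 ± 0.17) and lower in the chondrocyte gate (25.8 and 59.2 CPM; -1.24 ± 0.28 and -1.32 ± 0.19), opposite to Lef1. Ctnnb1, which encodes β-catenin, and Dvl1 were higher in the osteoblast gate (1.02 ± 0.12 and 1.47 ± 0.26). Of 10 feedback and target genes 7 were tested. In the chondrocyte gate 2 of them were higher (25.4% of all genes tested were) and 4 lower (21.7%). In the osteoblast gate 5 were higher (18.5%) and 0 lower (15.4%). Notum (55.0 CPM, 4.53 ± 0.29) and Ccnd1 (91.1 CPM, 1.86 ± 0.46) were the ones higher in the chondrocyte gate, whereas Nkd2 (1.45 CPM, -3.96 ± 0.33) and Tnfrsf19 (2.11 CPM, -3.47 ± 0.45) were lower there, as Axin2 was. Tnfrsf19 was highest in the CAR gate, at 129 CPM (3.41 ± 0.29, adjusted p = 3.32e-07).

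Within the chondrocyte gate, the ligand Wnt7b was higher in the growth plate (17.9 CPM; 2.84 ± 0.17) and Notum Sfrp5 (25.6 CPM; 2.56 ± 0.22) subsets and lower in the Cilp-high subset (0.293 CPM; -3.67 ± 0.44), whereas Wnt9a was higher in the Cilp-high subset (22.8 CPM; 2.12 ± 0.18) and lower in the growth plate subset (-2.17 ± 0.26). Rspo4 was at 14.7 and 14.8 CPM in the growth plate and cycling subsets (4.21 ± 0.23 and 4.09 ± 0.33). Ccnd1, which encodes cyclin D1, was at 252 CPM in the growth plate subset (3.15 ± 0.13, adjusted p = 8.83e-13) and at 6.68 and 4.91 CPM in the Cilp-high and Cytl1 Myoc subsets (-2.78 ± 0.23 and -2.98 ± 0.23). Nkd2 was higher in the Notum Sfrp5 subset (2.84 ± 0.37), at 5.66 CPM. The receptors Fzd9 and Fzd8 were higher in the Cytl1 Myoc subset (1.41 ± 0.08 and 1.94 ± 0.13) and lower in the cycling subset (-2.55 ± 0.17 and -1.78 ± 0.31), and Lgr6 was at 184 CPM in the Cilp-high subset (2.03 ± 0.12) and at 17.2 CPM in the growth plate subset (-2.28 ± 0.17). Notum was left out of these counts because it is a marker of a subset.

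The genes most like the members were ranked by the Pearson correlation of log2 of CPM plus 10 over the 25 sums of all gates, among 15689 genes, as a description with no test, since the sums share libraries and gates. For Rspo3 they were Chrdl1, Mro and Ism1 (r from 0.922 to 0.926), and for Tcf7 they were Smpd3, Sytl2 and Bmp3 (0.892 to 0.895). For Lef1 they were Paqr5, Il18r1 and Plaur (0.848 to 0.862). For Wnt4 they were Adam12, Fam160a1 and Hk2 (0.861 to 0.877), for Wnt5a Lama3, Scarf2 and Kcnk2 (0.887 to 0.910), for Wnt5b Pth1r, Klhl33 and Zfp827 (0.863 to 0.868), and for Wnt11 Fgfrl1, Il17d and Vit (0.874 to 0.904). For Wnt16 they were Shisal1, Tnn and Sdr42e1 (0.840 to 0.922), and for Lgr5 Grm7, Cacnb4 and Hpse2 (0.817 to 0.880). Over the 15 sums of the chondrocyte subsets the closest gene was Pde3a for Lef1 (0.984), Wscd2 for Rspo3 (0.986), Dclk1 for Tcf7 (0.978), Ppie for Wnt4 (0.976), Ptprk for Wnt5b (0.951), Podnl1 for Wnt5a (0.948), Cd109 for Wnt11 (0.944), Ccdc152 for Lgr5 (0.912) and Pcolce for Axin2 (0.895). The gate marker Prkg2 was among the 3 closest to Wnt4 (0.959).

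The members lie on 7 chromosomes of GRCm38 (GENCODE M21) and all are protein-coding. Wnt5b (chr6:119432531-119544347, - strand) and Wnt16 (chr6:22288227-22298522, + strand) share chromosome 6, Tcf7 (chr11:52252371-52283014, - strand) and Axin2 (chr11:108920349-108950783, + strand) chromosome 11, and Lgr5 (chr10:115450311-115587780, - strand) and Rspo3 (chr10:29452416-29535867, - strand) chromosome 10. Lef1 (chr3:131110471-131224356, + strand), Wnt4 (chr4:137277489-137299726, + strand), Wnt11 (chr7:98835112-98855195, + strand) and Wnt5a (chr14:28504750-28527448, + strand) are alone on theirs.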

How the data were processed

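Droplet single-cell RNA-seq was analysed from 3 libraries of sorted BLCs, for which the authors deposited UMI counts per gene and barcode made with Cell Ranger 7.1.0 on mm10, per the submitters' processing notes. Totals were 20985636, 79905165 and 69890252 UMIs over 2606, 7172 and 10529 barcodes, fewer barcodes than the cells the study states for its 3 libraries, a gap whose cause was not tested. Their number limits the precision. Cells below 200 detected genes or above 20% mitochondrial UMIs were dropped. The automatic threshold of Scrublet (scanpy 1.11.5) marked 42, 1 and 0 doublets and did not work, so the highest scores at 0.8% per 1000 cells were removed (51, 362 and 837 cells).

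Each cell was scored for marker lists as the mean of log2(UMIs per 10000 + 1) over the markers, each marker first scaled by its own distribution. It joined the best gate at a score of 0.25 or more and 0.05 above the next. The threshold was set after the marker distributions were seen. The members, markers and pathway lists were chosen with earlier results of these data known. UMIs were summed per gate and library (at least 20 cells) and tested with edgeR 4.0.16 (quasi-likelihood, two-sided, TMM, library as a block, Benjamini-Hochberg over all genes, called at an adjusted p of 0.05). Gates of 1 library come from the same sample, and their deviations correlated more within a library (median r 0.111, against -0.098 between libraries, and 0.037 against -0.016 for subsets). On simulated data 98.9% of log2 changes of 2 and 32.6% of changes of 1 were recovered for the chondrocyte comparison (6643 genes), and 67.7% and 13.4% for the cycling comparison (13213 genes). The simulated counts had the same spread for every gene and no difference between libraries other than depth, and few genes were changed. These shares are therefore not the power of the real comparisons. DESeq2 1.42.0, other size factors, filters, thresholds and left-out libraries were the alternatives. Intervals and floors cover counting error only. Levels of different genes were not compared, since reads come from 3′ ends. All 10 members were named, with the called pathway genes of the largest change (up to 4 per list) and the 3 genes most like each member. The genes most like Axin2 over the sums of all gates are not reported here.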

Additional observations from a re-analysis of the deposited data

How the results depend on the processing

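Of the 60 calls of the 10 genes, 44 were made under every other processing and 19 of these also without each library, and no direction was reversed. The edgeR test called 60 of them with RLE size factors, 60 without a low-count filter, 60 without a cell filter, 55 without removal of doublets, 56 with the stricter and 55 with the looser marker threshold, 53 with 50 cells per sum and 52 without the replicate block, and DESeq2 called 56. Without replicates 1, 2 and 3 it called 52, 25 and 34. The number of genes called without 1 library ranged from 3 to 7 in the chondrocyte gate (7 with all libraries), 3 to 5 in the osteoblast gate (6), 2 to 5 in the CAR gate (4), 1 to 3 in the tendon gate (5), 0 to 1 in the fibroblast gate (0), 1 to 6 in the cycling subset (5), 0 to 6 in the hypertrophic subset (5), 3 to 10 in the growth plate subset (9), 4 to 8 in the Cilp-high subset (7), 3 to 7 in the Cytl1 Myoc subset (7) and 2 to 6 in the Notum Sfrp5 subset (5). With fewer libraries fewer sums enter the fit, and a subset with 2 libraries is left with 1, which is assumed to vary like the others. The number of the 10 genes that could be tested changed as well, from 9 with all libraries. Without replicates 1, 2 and 3 it was 7, 9 and 10 for the gates and 10, 8 and 10 for the subsets. These counts of calls are therefore not over the same genes. With 50 cells per sum the tendon gate had 2 of 10 genes called in place of 5 of 9. Over all 9829 genes of that fit 801 were higher and 363 lower in the tendon gate. The fibroblast gate was left there with 1 library, replicate 3. The fibroblast gate had 2 without the low-count filter and 1 with the looser threshold. Without the replicate block the hypertrophic subset had 3 in place of 5. With the stricter threshold the fibroblast gate had no sum and was not in the fit. The Cytl1 Myoc and Notum Sfrp5 subsets then had 2 libraries each. The cause of these changes was not tested. The mean level of Wnt4 in the growth plate subset moved from 112.2 to 119.7 CPM with the stricter threshold and to 108.6 CPM without removal of doublets, and Wnt16 in the hypertrophic subset from 2.92 to 18.4 CPM with the looser threshold.

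Over all genes, calls without 1 library ranged from 2149 to 4629 in the chondrocyte gate (3907 with all), 996 to 3844 in the osteoblast gate (2811), 1649 to 3020 in the CAR gate (2946), 434 to 1806 in the tendon gate (1236), 228 to 1476 in the fibroblast gate (903), 1528 to 6527 in the cycling (5559), 346 to 3124 in the hypertrophic (2086), 921 to 8115 in the growth plate (6986), 1389 to 6912 in the Cilp-high (5930), 733 to 5367 in the Cytl1 Myoc (4462) and 1036 to 6634 in the Notum Sfrp5 subset (5795). They also moved with the stricter threshold in the tendon gate (1890), without the low-count filter (1396) and with 50 cells per sum (239) in the fibroblast gate, and without the replicate block in the hypertrophic (1326) and Cytl1 Myoc (2949) subsets.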

Other observations

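Cells that joined no group also held part of these transcripts. The 2552 chondrocyte-gate cells in no subset had Lef1 at 206, 165 and 146 CPM (172 ± 30.9, SD, n = 3 libraries), a mean above those of 5 of the 6 subsets. Their Wnt4 level was 0, 34.0 and 21.8 CPM. The 1754 cells outside every lineage gate had Wnt16 at 9.75, 21.2 and 10.8 CPM and Wnt5a at 13.5, 7.75 and 11.7 CPM.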
